A study of Mus musculus with 38 samples.

Results

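Pea15a, Igsf8, Igsf9, Tagln2, Ackr1 and Cadm3 are 6 genes of 1 stretch of mouse chromosome 1, described here in oligodendrocyte precursor cells (OPCs) with and without functional BMAL1. They were picked by name out of the 54532 genes of the deposited count table, for lying on a stretch whose first gene starts at 172000960 and whose last starts at 173350879, and because Tagln2 and Cadm3 were higher in the knockout libraries. The values that chose them are therefore the KO and WT levels over all times, which are given below as a description with no test. All 6 genes passed the filter on low counts and were among the 22798 genes tested.

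OPCs are the dividing glial cells of the brain that mature into myelin-forming oligodendrocytes, and BMAL1 is the transcription factor that, paired with CLOCK, switches on genes of the circadian clock through E-box sequences. Tagln2 encodes transgelin-2, an actin-binding protein of the calponin family, and Cadm3 encodes a nectin-like adhesion molecule of the immunoglobulin superfamily. Igsf8 and Igsf9 encode further immunoglobulin-superfamily membrane proteins, Pea15a a small death-effector-domain protein that binds ERK kinases and is abundant in glia, and Ackr1 an atypical receptor that takes up chemokines without the usual signalling.

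The study sequenced poly-A RNA of forebrain OPCs from mice of postnatal days 6 to 7, purified by immunopanning, which removes microglia and endothelial cells on lectin-coated plates and keeps cells that bind an antibody against PDGFRA. KO denotes NG2:Cre+;Bmal1fl/fl mice, in which Cre deletes the part of Bmal1 that encodes the DNA-binding domain, and WT denotes NG2:Cre-;Bmal1fl/fl mice, so both genotypes carried floxed Bmal1. The NG2 (Cspg4) promoter that drives Cre is also active in mural cells of blood vessels, and no Cre-positive group with intact Bmal1 was included, so effects of the transgene and of BMAL1 loss cannot be told apart. The 4 sampling times are given as zeitgeber time (ZT) under 12 h of light and 12 h of dark, where ZT0 is lights on and ZT12 lights off. There were 4 KO and 4 WT libraries at ZT0, 7 KO and 5 WT at ZT6, 4 KO and 6 WT at ZT12 and 4 KO and 4 WT at ZT18, each made from 2 pooled mice.

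The 38 libraries held 19376094 to 39007229 counts in all genes. In 8 libraries ribosomal RNA genes took at most 0.263% of counts, against at least 0.409% in the other 30. These 8, called low-rRNA libraries, were KO ZT6 replicate 7, all 4 KO ZT18 libraries and WT ZT12 replicates 4, 5 and 6, so at ZT18 this difference cannot be told apart from genotype. Summed OPC markers were at 13540 to 21110 CPM (counts scaled to a common library size) and summed microglia markers at 3813 to 17500 CPM over the 8 groups, so microglial RNA was present as well. In such bulk RNA, fewer cells of a type and less RNA per cell cannot be told apart. Arntl, the gene of BMAL1, had 17.7 to 23.4 CPM in KO libraries and 19.3 to 33.2 CPM in WT libraries; the count includes exons that Cre leaves in place and does not check the genotype labels.

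The genes lie in the order in which they were named, from Pea15a at 172196728 to 172206804 (ENSMUSG00000013698, minus strand) and Igsf8 at 172261641 to 172319841 (ENSMUSG00000038034, plus strand) to Cadm3, in GRCm38 coordinates of the deposited table. Igsf9 (ENSMUSG00000037995, 172481788 to 172498878) and Tagln2 (ENSMUSG00000026547, 172500047 to 172507380) both lie on the plus strand, 1168 bases apart, with no shared exon base. Ackr1 (ENSMUSG00000037872, 173331886 to 173333750) and Cadm3 (ENSMUSG00000005338, 173333258 to 173367695) both lie on the minus strand and overlap, sharing 361 exon bases in the GENCODE M21 annotation, which is 25.7% of Ackr1 and 4.98% of Cadm3. Pea15a shares 123 exon bases with Dcaf8, on the opposite strand. Which strand setting the counting used is not stated, so the origin of reads in exon stretches that any of the 6 shares with another gene cannot be told apart.

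RefSeq promoter windows (GRCm38.p6, 250 bases before to 50 after the start) were available for all 6 genes. Those of Tagln2 and Cadm3 are shown because these genes chose the set, and that of Igsf9 because it alone of the 6 holds the E-box CACGTG. Capitals mark CACGTG and the GC box GGGCGG on either strand. The windows are chr1:172499996-172500295 (plus strand) for Tagln2, chr1:173367646-173367945 (minus strand) for Cadm3 and chr1:172481963-172482262 (plus strand) for Igsf9, each written 5′ to 3′ on its gene's strand.
Tagln2: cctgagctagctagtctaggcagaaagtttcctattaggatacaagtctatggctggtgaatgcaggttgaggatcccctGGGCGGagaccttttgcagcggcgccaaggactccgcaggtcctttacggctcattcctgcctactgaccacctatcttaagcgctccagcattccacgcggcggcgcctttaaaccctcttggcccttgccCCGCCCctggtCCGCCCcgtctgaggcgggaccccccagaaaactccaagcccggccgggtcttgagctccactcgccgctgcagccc
Cadm3: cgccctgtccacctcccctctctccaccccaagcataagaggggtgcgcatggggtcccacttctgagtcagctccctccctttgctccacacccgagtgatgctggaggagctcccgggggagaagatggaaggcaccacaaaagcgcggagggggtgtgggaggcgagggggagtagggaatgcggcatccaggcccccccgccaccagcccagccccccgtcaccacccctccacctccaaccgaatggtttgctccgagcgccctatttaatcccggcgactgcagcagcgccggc
Igsf9: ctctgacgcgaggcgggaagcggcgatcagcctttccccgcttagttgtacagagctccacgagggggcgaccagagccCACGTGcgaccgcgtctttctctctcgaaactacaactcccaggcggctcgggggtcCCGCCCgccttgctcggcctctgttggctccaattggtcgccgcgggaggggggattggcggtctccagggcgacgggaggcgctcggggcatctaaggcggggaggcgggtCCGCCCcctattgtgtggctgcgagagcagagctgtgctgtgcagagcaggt
The E-box CACGTG was found in 7.15% of all 32851 promoter windows of this length, and in the Igsf9 window it begins 171 bases before the RefSeq start. RefSeq starts are not always those of the deposited table. The windows of Igsf8 and Igsf9 lie inside the gene spans given above. That of Ackr1, at 173333454 to 173333753, lies almost wholly inside the span of Ackr1 and wholly inside that of Cadm3. The variant CACGTT (4.68% of all windows), the D-box TTATGTAA (0.938%), the TATA box TATAAA (13.6%) and the CArG box that binds serum response factor (1.63%) were in none of the 6. The Tagln2 window holds 3 GC boxes and those of Pea15a, Igsf8 and Igsf9 hold 2, 5 and 2, whereas the Cadm3 and Ackr1 windows hold none; 35.7% of all windows hold at least 1. The nuclear receptor half-site AGGTCA (16.3% of all windows) was in the Pea15a and Ackr1 windows, once each. These matches describe letters in the windows and say nothing of binding.

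Tagln2, with a mean of 44.8 FPKM, a level scaled by gene length and library size, had the second-highest level of the 6 after Pea15a at 115 FPKM. Cadm3 averaged 19.3, Igsf8 18.5, Ackr1 6.97 and Igsf9 2.47 FPKM. The raw counts behind these levels ranged from 136 to 518 per library for Ackr1 and from 225 to 816 for Igsf9, and from 1362 upward for the other members. Ackr1 and Igsf9 are accordingly the least precise, with within-group SDs of 0.36 and 0.27 on the log2 CPM scale, against 0.14 to 0.20 for the rest.

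Tagln2 was higher in KO at every time, with the smallest difference at ZT12. At ZT0 its 4 KO libraries had 104, 112, 140.2 and 129.7 CPM, against 65.4, 49.4, 68.9 and 93.7 CPM in the 4 WT libraries. At ZT6 the 7 KO libraries ranged from 91.6 to 119.8 CPM with a median of 108 CPM, and the 5 WT libraries had 76.9, 82.9, 82.0, 90.2 and 83.4 CPM. Every KO library lay above every WT library at both times, which over all tested genes held for 2.6% at ZT0 and 0.136% at ZT6. At ZT12, where 2.12% of tested genes had every KO library above every WT library, the KO libraries had 86.3, 92.2, 94.9 and 97.2 CPM, whereas the 6 WT libraries ranged from 63.7 to 109 CPM with a median of 77.5 CPM. At ZT18 the KO libraries had 120.0, 111, 107.5 and 114 CPM, and the WT libraries 71.2, 81.5, 67.8 and 75.7 CPM. The genotypes thus overlapped at ZT12, through 2 WT libraries, and were apart again at ZT18, as 10.4% of tested genes were. The log2 fold changes of Tagln2, KO over WT, were 0.81 (SE 0.135) at ZT0, 0.36 (SE 0.112) at ZT6, 0.15 (SE 0.122) at ZT12 and 0.61 (SE 0.135) at ZT18, and their mean was 0.48 (SE 0.0631), or 1.40-fold.

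Cadm3 showed the same sequence of differences. Its KO libraries at ZT0 had 188, 178, 169.7 and 155 CPM, and its WT libraries 121, 113, 98.1 and 133 CPM. At ZT6 the KO libraries ranged from 139 to 175 CPM with a median of 144 CPM, against 123, 96.0, 108, 129.5 and 123 CPM in WT. At ZT18 the KO libraries had 192, 153, 177 and 158 CPM and the WT libraries 107, 133, 117 and 133 CPM. At these 3 times the genotypes did not overlap; 5 of all tested genes (0.0219%), Tagln2 and Cadm3 among them, had every KO library above every WT library at each of the 3. At ZT12 the KO libraries had 148, 138, 106 and 162 CPM and the WT libraries ranged from 114 to 153 CPM with a median of 133 CPM, so WT lay within the KO range. The log2 fold changes of Cadm3 were 0.57 (SE 0.116), 0.39 (SE 0.0966), 0.063 (SE 0.105) and 0.47 (SE 0.116) at ZT0, ZT6, ZT12 and ZT18, with a mean of 0.37 (SE 0.0542), or 1.29-fold. Over all libraries, 9 of 19 KO libraries had more Tagln2, and 10 of 19 more Cadm3, than any of the 19 WT libraries.

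**Figure D1:**
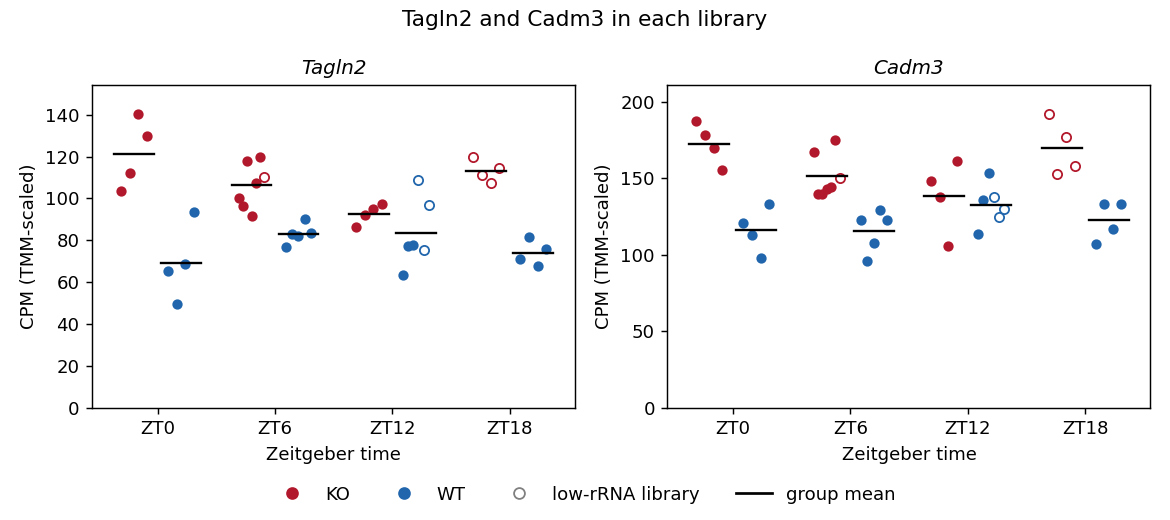
CPM (TMM-scaled) of Tagln2 and Cadm3 in every library by zeitgeber time, with KO left of WT at each time, horizontal lines at group means and open circles for low-rRNA libraries. Both genes were apart between genotypes at ZT0, ZT6 and ZT18 and overlapped at ZT12, where 2 open WT circles for Tagln2 reach 97.1 and 109 CPM.

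The low-rRNA libraries bear on the ZT12 and ZT18 values. At ZT12 the 3 low-rRNA WT libraries had 109, 75.3 and 97.1 CPM of Tagln2, and the 3 other WT libraries 63.7, 77.2 and 77.9 CPM. Without the low-rRNA libraries every KO library at ZT12 lay above every WT library for Tagln2, as it did for 3.9% of tested genes, and the log2 fold change was 0.35. For Cadm3 it was 0.044 without them, and the genotypes still overlapped. Leaving out single libraries, the ZT12 value of Cadm3 reached -0.022 without KO ZT12 replicate 4 and 0.18 without KO ZT12 replicate 3, and that of Tagln2 ranged from 0.087 without WT ZT12 replicate 1 to 0.24 without WT ZT12 replicate 4. Over ZT0, ZT6 and ZT12 without these libraries the mean log2 fold change was 0.50 for Tagln2 and 0.33 for Cadm3. Across all 38 libraries the log2 level of Tagln2 and the log2 ribosomal RNA share had r = -0.30, and r = -0.039 over the 30 others, libraries that share genotype and time groups. The part of RNA composition in these values was not tested.

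Ackr1 was also higher in KO at ZT0. Its 4 KO libraries there had 12.4, 11.2, 16.9 and 11.2 CPM and its WT libraries 8.46, 6.21, 6.02 and 9.68 CPM, with no overlap. Over all tested genes, 2.6% had every KO library above every WT library at ZT0. At ZT6 the KO libraries ranged from 6.93 to 14.7 CPM with a median of 11.02 CPM and the WT libraries had 8.53, 6.73, 7.44, 7.33 and 4.43 CPM. At ZT12 the genotypes overlapped, with 10.8, 9.99, 6.31 and 11.2 CPM in KO libraries and 6.06 to 11.9 CPM, median 9.76 CPM, in WT libraries. At ZT18 the KO libraries had 13.5, 11.4, 11.8 and 12.1 CPM and the WT libraries 7.09, 5.69, 10.6 and 14.2 CPM, with 1 WT library above all of KO. The log2 fold changes of Ackr1 were 0.77 (SE 0.248), 0.63 (SE 0.209), 0.026 (SE 0.225) and 0.37 (SE 0.245) in time order, with a mean of 0.45 (SE 0.116). The sign at ZT12 was not stable, with -0.18 without the low-rRNA libraries, -0.084 with replicate number as a block and -0.074 without WT ZT12 replicate 5. At ZT18 the value was 0.19 without WT ZT18 replicate 2 and 0.64 without WT ZT18 replicate 4. Its values are uncertain, since the exon bases it shares with Cadm3 lie on the same strand and Cadm3 had on average 3727 counts per library against 259 for Ackr1. Over the 38 libraries the log2 levels of Ackr1 and Cadm3 had r = 0.69, and r = 0.40 after group means were removed.

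Pea15a differed between genotypes mainly at ZT0. Its KO libraries there had 563, 493.4, 617 and 518 CPM, and its WT libraries 341, 350.4, 368 and 538 CPM. WT replicate 4 stood apart from the other WT libraries and lay inside the KO range. At ZT6 the KO libraries ranged from 382 to 489 CPM with a median of 430.3 CPM, against 417, 411, 407, 448 and 409.7 CPM in WT. At ZT12 they had 392, 401, 431 and 459.8 CPM and the 6 WT libraries ranged from 394 to 475 CPM with a median of 441 CPM. Both times showed broad overlap. At ZT18 the KO libraries had 521, 489.9, 513 and 488 CPM, all above the WT libraries at 434, 423, 411 and 429 CPM. This was the case for 10.4% of tested genes at ZT18. The log2 fold changes of Pea15a were 0.46 (SE 0.102), 0.051 (SE 0.0842), -0.052 (SE 0.0928) and 0.25 (SE 0.102), with a mean of 0.17 (SE 0.0476).

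Igsf8, which encodes a partner of the tetraspanins CD9 and CD81, was lower in KO at ZT12 and higher at ZT18. At ZT12 the KO libraries had 64.5, 82.8, 66.1 and 81.4 CPM, all below the 6 WT libraries at 90.4 to 131 CPM (median 112 CPM), as for 3.15% of tested genes. At ZT18 the KO libraries had 126, 113, 119 and 119.8 CPM, all above the WT libraries at 98.7, 96.9, 89.6 and 94.7 CPM. Such a separation at ZT18 held for 10.4% of tested genes. At ZT0 the KO libraries had 87.5, 97.2, 105 and 84.8 CPM and the WT libraries 81.0, 82.9, 81.2 and 91.2 CPM, which overlapped. At ZT6 the KO libraries ranged from 75.6 to 120.5 CPM with a median of 95.6 CPM, and the WT libraries had 95.3, 88.1, 87.6, 82.6 and 104 CPM. The log2 fold changes of Igsf8 were 0.16 (SE 0.118), 0.092 (SE 0.0979), -0.59 (SE 0.11) and 0.33 (SE 0.118), which average to -0.0041 (SE 0.0553).

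Igsf9, whose last exon ends just upstream of Tagln2, did not separate the genotypes at any time. Group means lay between 13.7 ± 2.53 (SD, n = 7) CPM in KO at ZT6 and 19.3 ± 1.64 (SD, n = 4) CPM in KO at ZT18, and WT means between 14.6 ± 3.00 (SD, n = 5) at ZT6 and 17.7 ± 2.76 (SD, n = 6) CPM at ZT12. Its mean log2 fold change was 0.027 (SE 0.0887), or -0.013 to 0.094 leaving out 1 library, with single times from -0.091 (SE 0.158) at ZT6 to 0.13 (SE 0.188) at ZT18. The highest and lowest WT values at ZT0 were 23.3 and 10.3 CPM, around KO values of 13.6 to 17.7 CPM.

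**Figure D2:**
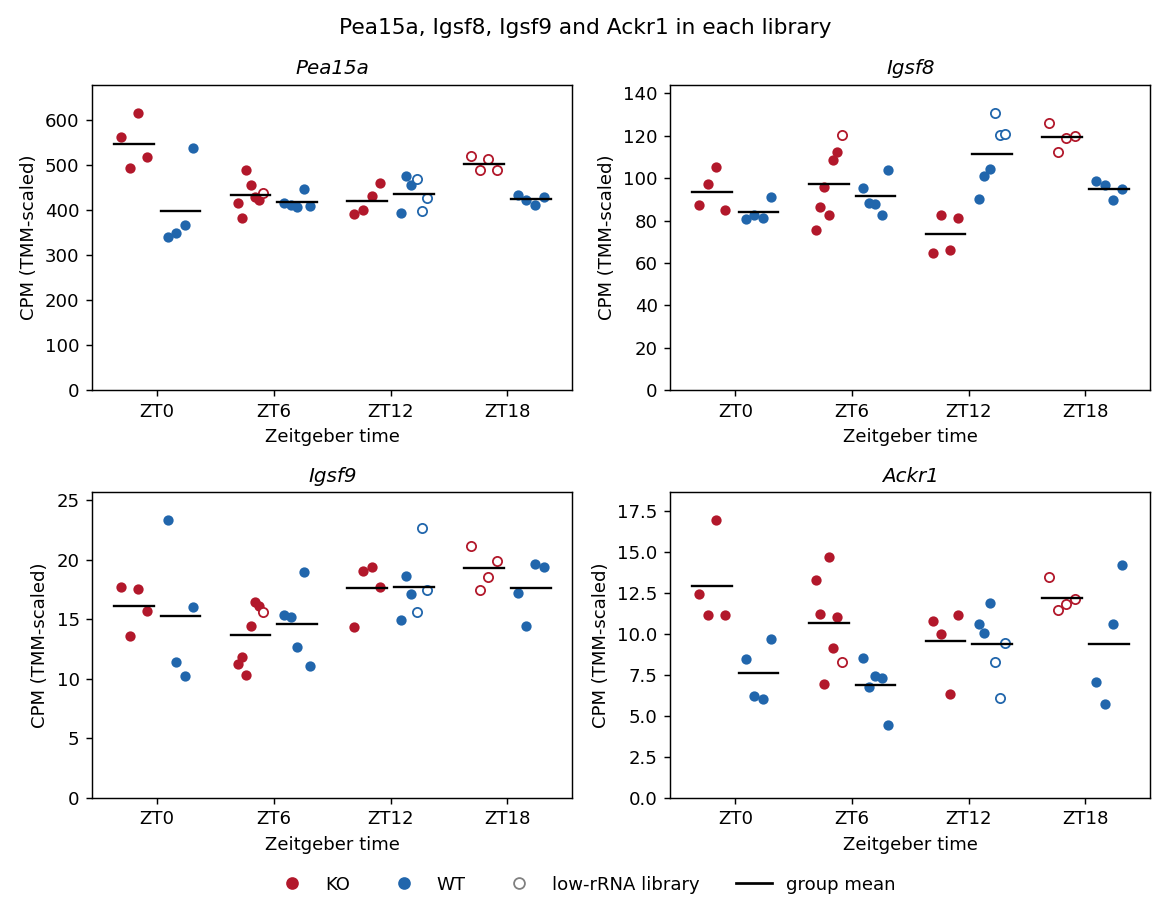
CPM (TMM-scaled) of Pea15a, Igsf8, Igsf9 and Ackr1 in every library by zeitgeber time, with KO left of WT, lines at group means and open circles for low-rRNA libraries. The open circles of Igsf8 all sit at 113 CPM or more, and in Igsf9 the genotypes overlap at every time.

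Whether the genotype difference depended on time was tested with 3 degrees of freedom by edgeR's quasi-likelihood test, adjusted by Benjamini-Hochberg over all 22798 genes. This interaction is separate from the mean difference that chose the genes. Igsf8 passed (adjusted p = 0.001) and so did Pea15a (adjusted p = 0.0434), 2 of the 6 genes, where 9.19% of all tested genes passed. Tagln2 (adjusted p = 0.0534), Cadm3 (0.0986), Ackr1 (0.349) and Igsf9 (0.908) did not pass in the same test. The test covers any change of the difference among the 4 times. For Tagln2 and Cadm3, a smaller difference at ZT12 than at the other times was not tested by itself. Without the low-rRNA libraries, which leaves ZT0, ZT6 and ZT12, neither Igsf8 (adjusted p = 0.195) nor Pea15a (adjusted p = 0.227) passed. Of all 22965 genes tested in that run 0 passed by edgeR. An unadjusted p under 0.05 was reached by 2843 of them, among these 5 of the 6 genes described here. Pea15a passed in only 13 of 38 edgeR runs, each leaving 1 library out, with adjusted p from 7e-04 without WT ZT0 replicate 4 to 0.122 without WT ZT0 replicate 2, and Igsf8 passed in all 38. Tagln2 passed by edgeR without WT ZT0 replicate 4 (adjusted p = 0.00538), WT ZT12 replicate 1 (0.0225), KO ZT0 replicate 1 (0.0418) or KO ZT6 replicates 3 (0.0444) or 6 (0.0485), and Cadm3 without KO ZT12 replicate 4 (0.0462). With all libraries Tagln2 also passed by DESeq2 (adjusted p = 0.0453) and limma-voom (adjusted p = 0.0393), so its place relative to the threshold depends on the tool.

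Time of day was tested within each genotype in the same way. In KO, Igsf8 (adjusted p = 0.000867) and Pea15a (adjusted p = 0.00882) changed with time, 2 of 6 genes against 21.9% of all tested genes. Mean Igsf8 in KO was highest at ZT18, at 119 ± 5.50 CPM, and lowest at ZT12, at 73.7 ± 9.74 CPM (SD, n = 4 each), a ratio of 1.62. Mean Pea15a in KO was highest at ZT0, at 548 ± 54.2 CPM, and lowest at ZT12, at 421 ± 30.8 CPM (SD, n = 4 each), a ratio of 1.301. Without the low-rRNA libraries, which leaves ZT0, ZT6 and ZT12 in KO, both passed by edgeR as well (adjusted p = 0.0481 for Igsf8 and 0.0326 for Pea15a). That run holds no KO library at ZT18 and so does not check the ZT18 level of Igsf8. Without the 13 single-sex libraries, those with sex-linked counts of 1 sex, Pea15a did not pass by edgeR (adjusted p = 0.115). Tagln2 (adjusted p = 0.12), Cadm3 (0.0875), Igsf9 (0.0985) and Ackr1 (0.435) did not pass in KO by edgeR. Without KO ZT12 replicate 4 Cadm3 passed (adjusted p = 0.0405), and without WT ZT0 replicate 1 Igsf9 passed (adjusted p = 0.0483).

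In WT 0 of the 6 passed in edgeR's test, where 4.91% of all tested genes did. Igsf8 alone had an unadjusted p under 0.05 (17.5% of all tested genes), and it passed in WT with DESeq2 (adjusted p = 0.035) but not with limma-voom (adjusted p = 0.0668). The adjusted p-values of edgeR's test were 0.0641 for Igsf8, 0.428 for Tagln2, 0.454 for Ackr1, 0.55 for Cadm3, 0.628 for Igsf9 and 0.85 for Pea15a. Igsf8 passed in WT in 4 of the 38 such runs, without WT ZT0 replicate 4, WT ZT12 replicate 1 or KO ZT6 replicates 1 or 7 (adjusted p = 0.0247 to 0.0479), and had an adjusted p of 0.833 without the low-rRNA libraries. The ratio of the highest to the lowest time mean in WT was 1.09 for Pea15a, 1.14 for Cadm3, 1.201 for Tagln2, 1.21 for Igsf9, 1.32 for Igsf8 and 1.36 for Ackr1.

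**Figure D3:**
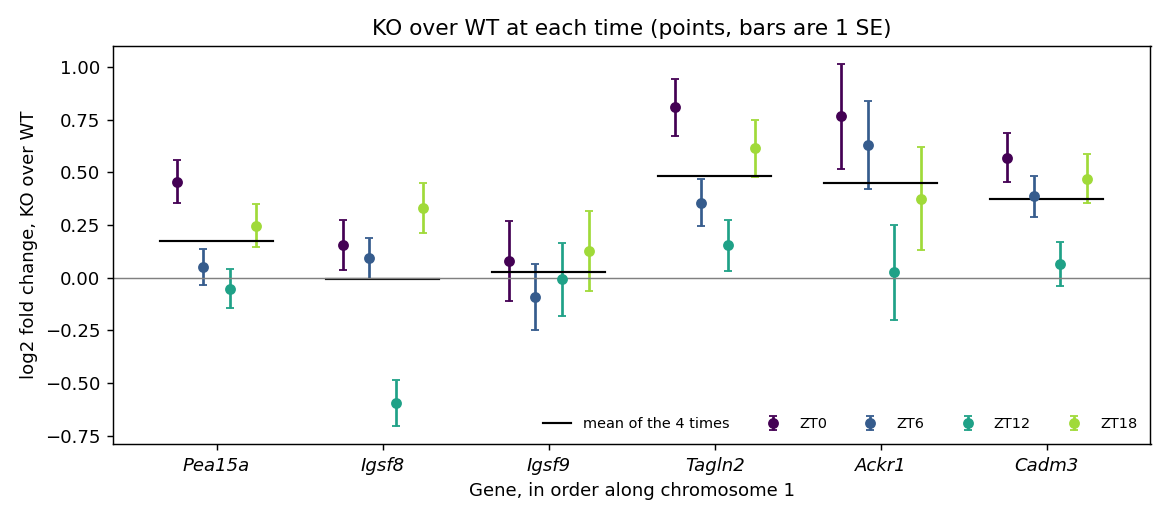
Log2 fold change of KO over WT for the 6 genes in chromosomal order, with a point and a bar of 1 SE for each zeitgeber time and a black line at the mean of the 4 times. With all libraries Tagln2, Ackr1 and Cadm3 are nearest to 0 at ZT12, where the values of Ackr1 (0.026) and Cadm3 (0.063) lie within 1 SE of 0 and are below it in some runs with libraries left out, and Igsf8 is at -0.59 at ZT12.

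In the order of group means, the 4 KO groups of Tagln2 held the first 4 places, from 121 ± 16.5 CPM at ZT0 to 92.7 ± 4.70 CPM at ZT12 (SD, n = 4 each), followed by WT from 83.3 ± 16.4 (SD, n = 6) CPM at ZT12 to 69.4 ± 18.3 (SD, n = 4) CPM at ZT0. The 4 KO groups also came first for Cadm3, from 172.7 ± 13.7 CPM at ZT0 to 138 ± 23.9 CPM at ZT12 (SD, n = 4 each), with WT at 132 ± 13.4 (SD, n = 6) CPM at ZT12 next. For both genes the ranges of every pair of neighbouring groups in this order overlapped. In Pea15a the KO groups at ZT0 and ZT18 came first, and the range at ZT18 was apart from that of the next group, WT at ZT12. In Igsf8 KO held both the first place, at ZT18, and the last, at ZT12.

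Igsf8 was high in every low-rRNA library. The 8 low-rRNA libraries had 113 to 131 CPM with a median of 119.8 CPM, and the 30 others 64.5 to 113 CPM with a median of 88.9 CPM. Within WT at ZT12 the low-rRNA libraries had 131, 120.2 and 121 CPM and the others 90.4, 100.9 and 104 CPM. The 4 KO libraries at ZT12 lay below the 3 others too, as 5% of tested genes did, with a log2 fold change of -0.42 without the low-rRNA libraries. Over all 38 libraries Igsf8 and the log2 ribosomal RNA share had r = -0.63, and r = 0.31 over the 30 others. The difference of Igsf8 at ZT18 rests on 4 KO libraries that are all low in rRNA, and the part of RNA composition in it was not tested.

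**Figure D4:**
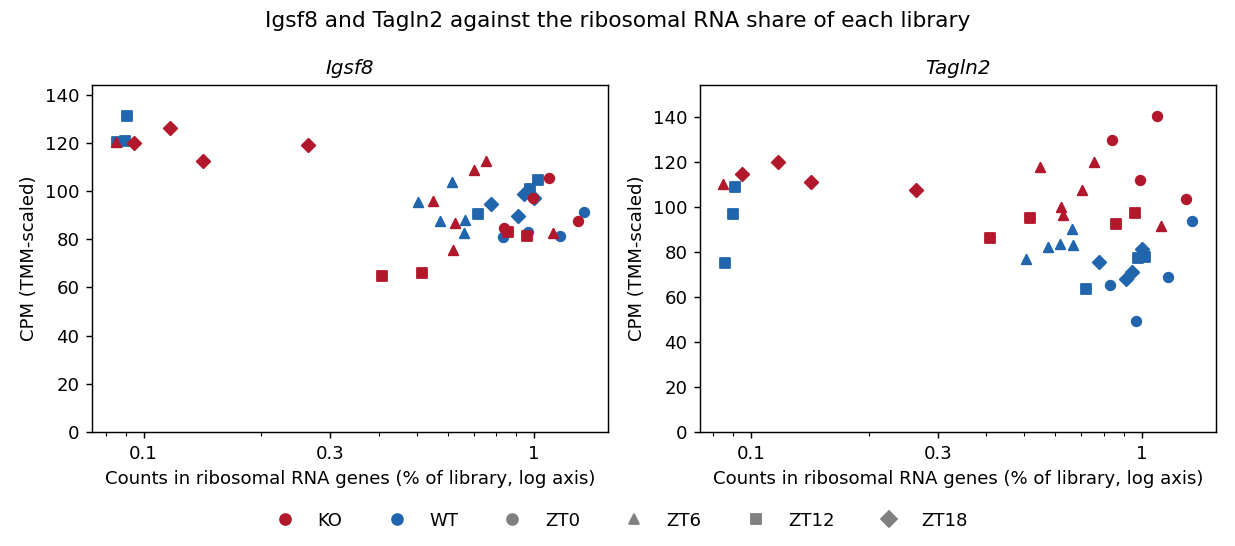
CPM (TMM-scaled) of Igsf8 and Tagln2 against the percentage of counts in ribosomal RNA genes (log axis), 1 symbol per library, with colour for genotype and shape for zeitgeber time. In Igsf8 the 8 libraries at the left sit at 113 to 131 CPM whatever their genotype, whereas Tagln2 in libraries of the right-hand group spans 86.3 to 140.2 CPM in KO and 49.4 to 93.7 CPM in WT.

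Markers of other cells moved with some of these genes from library to library. After group means were removed, Cadm3 had r = 0.78 with summed OPC markers, 0.69 with mural markers, -0.66 with microglia markers, 0.55 with neuron markers and 0.50 with choroid plexus markers over the 38 libraries. Ackr1 had r = -0.76 with microglia, 0.58 with neuron and 0.35 with choroid plexus markers. At ZT0 the median neuron sum was 2023 CPM in KO and 1613 CPM in WT, and the median choroid plexus sum was 601.8 CPM in KO and 422 CPM in WT. The ranges of KO and WT overlapped for both sums there. The neuron medians in KO and WT were 1412 and 1426 CPM at ZT6, 1812 and 1627 CPM at ZT12, and 1762 and 1613 CPM at ZT18. The choroid plexus medians were 456.5 and 467 CPM, 451.2 and 445.2 CPM, and 529.5 and 443.5 CPM at these times. Tagln2 had r = 0.31 with OPC, 0.33 with mural and -0.039 with microglia markers after group means were removed, and no marker list reached a larger size with it. Most of the mural sum was Cspg4, at a mean of 932 CPM, which OPCs express as well. The largest part of the choroid plexus sum was Enpp2, at a mean of 390 CPM, followed by Ttr at 89 CPM. In the neuron sum the largest parts were Map2 (686 CPM) and Dcx (422 CPM), followed by Tubb3 (140 CPM). The r values with these sums thus rest largely on few genes and do not show which cells were present. These sums share libraries and scaling with the genes, so the values are descriptions.

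Summed microglia markers, all 12 of which were tested, were at 3813 to 7576 CPM in KO and 5361 to 13330 CPM in WT at ZT0, at 7002 to 17500 CPM in KO and 7865 to 13380 CPM in WT at ZT6, at 6290 to 11650 CPM in KO and 5830 to 10560 CPM in WT at ZT12, and at 9948 to 14070 CPM in KO and 4505 to 12150 CPM in WT at ZT18. Their medians were 6676 CPM in KO and 8205 CPM in WT at ZT0, 11660 CPM in KO and 9824 CPM in WT at ZT6, 8731 CPM in KO and 9143 CPM in WT at ZT12, and 11430 CPM in KO and 9585 CPM in WT at ZT18. The ranges of KO and WT overlapped at every time. Summed OPC markers had medians of 18040 CPM in KO and 16110 CPM in WT at ZT0, of 16210 CPM in KO and 18700 CPM in WT at ZT6, of 16490 CPM in KO and 17300 CPM in WT at ZT12, and of 15260 CPM in KO and 17200 CPM in WT at ZT18. 

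Endothelial markers, which mark the vessel cells known to carry Ackr1, were at 40.1 to 155 CPM summed over 12 genes, and red blood cell markers at 1116 to 7847 CPM summed over 9 genes. Ackr1 had r = -0.35 with the endothelial and -0.096 with the red blood cell sum after group means were removed. By edgeR, 0 genes of any marker list were called between KO and WT over all times, and 0 by DESeq2. Over all tested genes edgeR called 0.0921% and DESeq2 244 genes. DESeq2 gave no adjusted p for some markers with low counts. Among these were Folr1, Kcnj13, Clic6, Prlr and Kl of the choroid plexus list, Tek, Slco1a4 and Emcn of the endothelial list, and Acta2, Myh11, Des and Higd1b of the mural list. At an unadjusted p under 0.05, which 7.42% of all tested genes reached higher and 7.69% lower in KO, there were 0 higher and 2 lower among 12 OPC markers, 3 higher and 1 lower among 11 committed oligodendrocyte markers, 0 among 12 microglia markers, and 1 higher in each of the endothelial, mural and astrocyte lists of 12. Among 12 neuron, 8 tested red blood cell and 8 choroid plexus markers there were 4, 6 and 3 higher and 0 lower. The median log2 fold changes were -0.068 for OPC, 0.23 for committed oligodendrocyte, 0.044 for microglia, 0.11 for endothelial, 0.23 for mural, 0.04 for astrocyte, 0.15 for neuron, 0.36 for red blood cell and 0.31 for choroid plexus markers. The part of other cells in the values of the 6 genes was not tested. None of the 12 OPC, 12 microglia, 12 endothelial, 12 mural, 12 astrocyte, 12 neuron, 12 committed oligodendrocyte, 9 red blood cell or 8 choroid plexus markers was at 0 in all libraries.

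The other genes of the stretch gave no call between KO and WT. Of the 55 genes that start in it, 49 are not among the 6, and 22 of these were tested. By edgeR's quasi-likelihood test of KO against WT over all times, 0 of the 22 were called at an adjusted p under 0.05, the smallest adjusted p being 0.136, whereas over all tested genes 15 (0.0658%) were called higher and 6 (0.0263%) lower in KO. That total of 21 was 633 without WT ZT0 replicate 4 and between 10 and 38 without any other single library. At an unadjusted p under 0.05, 1 of the 22 was higher and 2 were lower, where 15.1% of all tested genes reached it (7.42% higher and 7.69% lower), and DESeq2 and limma-voom each called 0. Their median log2 fold change was -0.0046, against -0.018 over all genes tested. Over all 22 the log2 fold change ran from -2.22 (SE 0.762, mean count 2.9) to 0.81 (SE 0.418, mean count 25.4). Among the 12 with a mean count of at least 100 it ranged from -0.13 for Kcnj9, a potassium channel gene, to 0.12 for Pex19, a peroxisome biogenesis gene. Pex19 was called without WT ZT0 replicate 4, at a log2 fold change of 0.14 and an adjusted p of 0.0323 by edgeR.

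Next to Pea15a, Dcaf8, which shares exon bases with it, differed by -0.031 on the log2 scale (SE 0.0304), and Casq1, a calcium-binding muscle gene that is also next to Igsf8, had -0.097 (SE 0.258). Of the tested genes next to Tagln2 and Cadm3 other than the 6, none was above 0.10 on this scale. Upstream of Tagln2, Igsf9 had 0.027 (SE 0.0887) and Slamf9, an immune receptor gene, 0.098 (SE 0.128). Downstream, the unnamed model Gm37125, with a mean of 12.5 counts, had -0.69 (SE 0.358), and Dusp23, a phosphatase gene and the nearest on that side with a mean count of at least 100, 0.064 (SE 0.108). No gene between Dusp23 and Ackr1 was tested. Aim2, a DNA sensor gene of the opposite strand that starts within the span of Cadm3, had -0.11 (SE 0.11). The tested genes at the outer edges of the stretch were Vangl2 inside (0.065, SE 0.0503) and Slamf6 outside (-0.088, SE 0.207) at the lower end, and Aim2 inside and Ifi206 outside (-0.68, SE 0.407) at the upper end. In the test of the interaction 0 of the 22 genes passed by edgeR, against 9.19% of all tested genes. At an unadjusted p under 0.05 there were 4 (24.7% of all tested genes), and 1 passed by DESeq2 and 0 by limma-voom. In the test of time in KO, 3 of the 22 passed by edgeR (Aim2, Slamf8 and Ncstn, adjusted p = 0.0141 to 0.0366), against 21.9% of all tested genes.

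**Figure D5:**
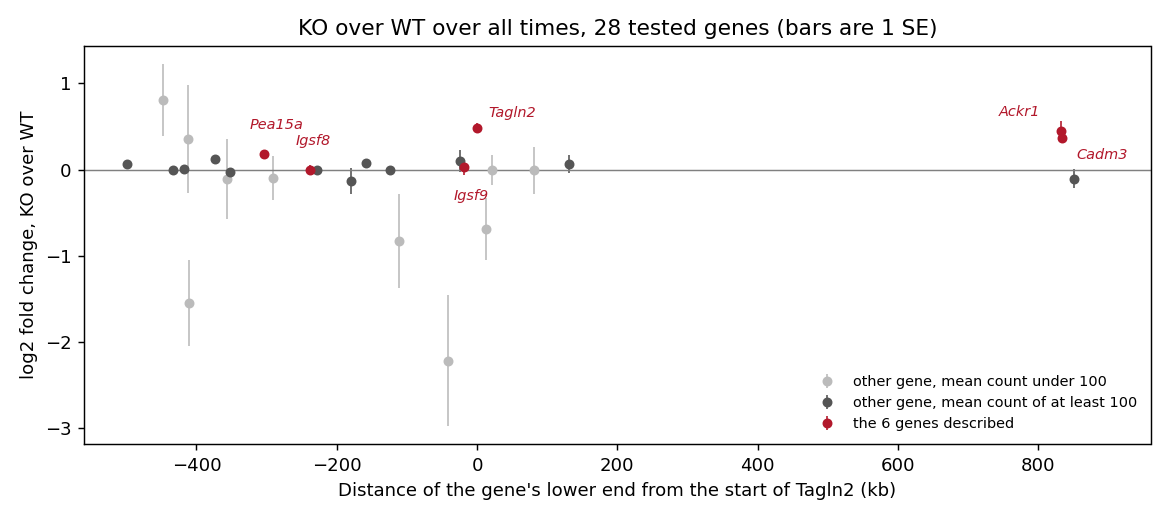
Log2 fold change of KO over WT over all times for the 28 tested genes of the stretch, against the distance of each gene's lower end from the start of Tagln2 in kb, with bars of 1 SE, red for the 6 genes described and grey for the others. Tagln2 at 0.48 and, at least 831.8 kb away, Ackr1 and Cadm3 at 0.45 and 0.37 stand above the 12 dark grey genes, which lie between -0.13 and 0.12. The light grey genes, with mean counts under 100, reach from -2.22 to 0.81. The set was chosen for the rise of Tagln2 and Cadm3 in KO, so their height here is no independent result.

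The 6 genes varied together only in part from library to library. After group means were removed, Pea15a and Tagln2 had the highest r of the 15 pairs, 0.63, and 0.48 without the 2 libraries farthest from the median. Igsf8 and Tagln2 had r = 0.52, and 0.56 without the 2 farthest. Tagln2 and Cadm3 had r = 0.24, Tagln2 and Igsf9, its nearest neighbour, 0.14, and Tagln2 and Ackr1 -0.036. These values describe 38 libraries that share scaling.

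Among all tested genes with a name, those whose log2 CPM followed Tagln2 most closely over the 38 libraries were Hspbp1, a co-chaperone gene (r = 0.80), Selenoh, a selenoprotein gene (0.80), the cell cycle kinase gene Cdk4 (0.79), Imp3, which acts in ribosomal RNA processing (0.79), and Zfand3 (0.78). Their log2 fold changes of KO over WT ranged from 0.13 for Zfand3 to 0.66 for Imp3. For Cadm3 they were Ajap1, an adherens junction protein gene (r = 0.82, log2 fold change 0.43), the formin gene Fmn2 (0.77), Atp9a (0.76), Imp3 (0.75) and the proton pump subunit gene Atp6v0e2 (0.74). After group means were removed the r of Imp3 was 0.40 with Tagln2 and 0.17 with Cadm3, lower than over all libraries. Nearest to Pea15a were Fyn, Slc25a4 and Abhd4 (all 0.88), to Igsf8 Sf3a2 (0.93), Dazap1 and Map7d1 (both 0.92), to Igsf9 Tle1 (0.76), Tom1l2 and Hdac7 (both 0.75), and to Ackr1 Ppm1b (0.72), Cadm3 (0.69) and Fdft1 (0.65).

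Relatives and partners of the 6 genes showed no call between KO and WT over all times by edgeR. Over all 22798 tested genes edgeR called 21 (0.0921%) and DESeq2 244, so 0 calls in lists this short are near those shares. This holds for each list below. DESeq2 gave no adjusted p for some list genes with low counts, among them Tagln, Crtam and Cd101. In the calponin family, 4 relatives of Tagln2 were tested, with 0 called, 2 higher at an unadjusted p under 0.05 (7.42% of all tested genes) and 1 called by DESeq2, which was Tagln3. Tagln3, a neuronal transgelin at 32.6 FPKM, differed by 0.28 on the log2 scale (SE 0.0705), with adjusted p = 0.0942 by edgeR. Cnn3, at 58.2 FPKM, had 0.15 (SE 0.0545), Cnn2 0.17 (SE 0.106) and the smooth muscle gene Tagln, at 0.298 FPKM, 0.21 (SE 0.313). Cnn1 was below the filter on low counts. In the tests of time, Tagln3 and Cnn2 passed the interaction (adjusted p = 0.00592 and 0.00124 by edgeR), Tagln3 passed in WT (adjusted p = 0.0204), and Tagln3, Cnn2 and Cnn3 passed in KO. Over all tested genes 9.19% passed the interaction, 4.91% time in WT and 21.9% time in KO.

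Of 15 tested actin cytoskeleton genes that serum response factor and its MRTF cofactors are known to drive, 0 were called over all times by edgeR and by DESeq2, and 4 were higher at an unadjusted p under 0.05, against 7.42% of all tested genes. The 10 with a value above 0 included Actb, cytoplasmic actin (0.16, SE 0.0781), and Actg1 (0.17, SE 0.0577), and the median was 0.15, against 0.48 for Tagln2 and -0.018 over all genes. Filamin, Flna, had -0.081 (SE 0.0627) and non-muscle myosin, Myh9, 0.029 (SE 0.088). Of these 15, 5 passed the interaction (9.19% of all tested genes), 3 passed time in WT (4.91%) and 8 passed time in KO (21.9%).

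Among 17 other adhesion molecules and partners of the CADM and nectin families, 0 were called over all times by edgeR and by DESeq2, with 0 at an unadjusted p under 0.05, and their median was 0.0095. Cadm4, the CADM member known on the myelin side of the axon contact, was at 235 FPKM, above Cadm3 at 19.3 FPKM, and had a log2 fold change of 0.10 (SE 0.0585). Cadm2 had -0.064 (SE 0.0598) and Cadm1, at 11.7 FPKM, 0.06 (SE 0.0408), and Epb41l2, a band 4.1 scaffold gene, -0.076 (SE 0.0929). Cadm4, Nectin2 and the scaffold gene Mpp2 passed the interaction (adjusted p = 0.00266, 0.0024 and 0.0123 by edgeR), as 9.19% of all tested genes did. Pvr passed time in WT, against 4.91% of all tested genes, and 5 of the 17 passed time in KO, against 21.9%.

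Partners of the other members gave no call over all times either. Of the 7 other EWI proteins and tetraspanins, 0 were called over all times by edgeR and DESeq2. At an unadjusted p under 0.05, 2 were higher, against 7.42% of all tested genes. Cd9 (186 FPKM) and Cd81 (154 FPKM), the tetraspanins that bind IGSF8, had log2 fold changes of 0.13 (SE 0.0523) and 0.077 (SE 0.0619), and Cd81 passed time in KO (adjusted p = 0.0104 by edgeR) whereas Cd9 had an adjusted p of 0.155. Of 12 partners of PEA15 and death effector genes, 0 were called over all times by both tools and 1 was higher at an unadjusted p under 0.05. Mapk3, an ERK kinase gene, had a value of 0.12 (SE 0.0735). Besides Pea15a, 7 of these 12 genes passed time in KO, against 21.9% of all tested genes. Of 5 IGSF9 relatives and 8 atypical chemokine receptors and ligands of ACKR1, 0 were called by either tool over all times. By edgeR 0 reached an unadjusted p under 0.05. DESeq2 gave no adjusted p for Ackr2, Ackr4, Ccl5 and Ccl17. Among the ligands, Ccl2 was at 125 FPKM with a log2 fold change of -0.011 (SE 0.148) and Ccl7 at 111 FPKM with 0.23 (SE 0.159).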

How the data were processed

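RNA of 38 mouse OPC libraries was analysed from 1 table of raw read counts per gene that the authors deposited, used as deposited. Per the submitters' processing notes, fastp, HISAT2 2.0.5 and featureCounts 1.5.0-p3 were used on GRCm38 (mm10). Annotation release and strand setting are not stated; exon lengths of the 6 genes equal those of GENCODE M21. Groups came from the sample titles.

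Genes passing filterByExpr of edgeR 4.0.16 were kept (22798 genes, 99.95% of counts), scaled by TMM and fitted with 8 group means in 1 quasi-likelihood model under R 4.3.3. Benjamini-Hochberg adjustment covered all genes tested, with calls at 0.05. Each log2 fold change is KO over WT, and the mean over times weights the 4 times equally. CPM and FPKM values were computed from the counts with TMM-scaled library sizes and deposited gene lengths, and correlations used log2 CPM with a prior count of 2.

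The 6 genes, the gene lists and the alternatives were chosen with earlier results of these data known. Genes named besides the 6 were the neighbouring genes, the nearest in pattern (5 for Tagln2 and Cadm3, 3 for the others; unnamed models, pseudogenes and sex-linked genes skipped), and list genes that were most abundant or passed a test. Vangl2, Slamf6, Slamf8, Ncstn, Kcnj9, Pex19, Ifi206 and Cadm1 were named after their values were seen. Libraries of a group did not match within sampling noise (76 pairs, smallest chi-square per degree of freedom 11). Alternatives were other scaling, no filter, DESeq2 1.42.0, limma-voom (limma 3.58.1), a replicate block, leaving out each library, the 8 low-rRNA or the 13 single-sex libraries (Xist and Y-linked counts of 1 sex), and, chosen after seeing the data, ZT18 or the 4 low-rRNA libraries outside it. The model was tested on simulated counts. P-values and intervals cover the spread between libraries, each from 2 pooled mice. Results of some neighbouring and listed genes are not reported here.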

Additional observations from a re-analysis of the deposited data

Results flagged for a closer look

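Igsf8 and Pea15a were picked out because their KO and WT difference depended on zeitgeber time by edgeR's quasi-likelihood test, with adjusted p = 0.001 for Igsf8 and adjusted p = 0.0434 for Pea15a. For Igsf8 the log2 fold change was -0.59 (SE 0.11) at ZT12 and 0.33 (SE 0.118) at ZT18, and both times include low-rRNA libraries, whose part was not tested.

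Pea15a also had the 2 single libraries that stood apart from the others of their group among the 48 sets of 1 gene in 1 group that were looked at. Chance singles out a library in about 1 of 20 such sets. WT ZT0 replicate 4 had 538.3 CPM, a gap of 0.863 of the group's range to the next library, and WT ZT6 replicate 4 had 447.8 CPM, a gap of 0.759 of its range. WT ZT0 replicate 4 was also the highest WT library of its time for Tagln2 (93.7 CPM), Cadm3 (133 CPM), Ackr1 (9.68 CPM) and Igsf8 (91.2 CPM). Without it the log2 fold change of Pea15a at ZT0 was 0.62, against 0.46 with it, and that of Tagln2 was 0.98, against 0.81.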

How the results depend on the processing

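The mean log2 fold changes of Tagln2, Cadm3, Ackr1 and Pea15a stayed positive under every alternative that gave them. They were not taken for the runs without ZT18 or without the low-rRNA libraries outside it. In all 38 fits that left out 1 library they were positive too, at 0.45 to 0.52, 0.35 to 0.40, 0.40 to 0.51 and 0.15 to 0.22. Besides those fits, in the alternatives that gave values at single times, 1 member value moved by more than the spread within groups. It was Igsf8 at ZT12 (-0.42 without the low-rRNA libraries). Pea15a lost its interaction call with RLE size factors (adjusted p = 0.0761), library size alone (0.0876), no filter (0.0914), and without the low-rRNA (0.227), single-sex (0.547), ZT18 (0.0849) or other low-rRNA libraries (0.151), and its KO time call without the single-sex libraries (0.115). Tagln2 passed the interaction with the replicate block too (adjusted p = 0.0397), and its adjusted p ranged from 0.00538 to 0.127 leaving out 1 library. The cause was not tested.

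Genes called over all times numbered 21, and 244 with DESeq2, 5 without the low-rRNA and 8 without the single-sex libraries, 25 with the replicate block, and 10 to 633 leaving out 1 library. At ZT0, leaving out KO replicates 1, 3 and 4 singly gave 13, 10 and 38 genes, and WT replicates 1, 2, 3 and 4 gave 13, 13, 12 and 633. Dropping KO replicate 1 at ZT6 gave 35, KO replicate 3 at ZT18 gave 13, and WT replicate 2 at ZT18 gave 12. For the interaction the count was 2096, and 3166 with DESeq2, 0 without the low-rRNA, 724 without the single-sex, 771 without the ZT18 and 289 without the other low-rRNA libraries, and 1049 (without KO ZT12 replicate 1) to 3175 (without WT ZT0 replicate 4) leaving out 1. For time in WT it was 1120, and 1778, 724, 487 and 715 under the first 4 of these, and 661 (without WT ZT6 replicate 2) to 1449 leaving out 1. For time in KO it was 5001, and 2050 without the low-rRNA, 3034 without the single-sex and 2639 without the ZT18 libraries, and 3632 to 5301 leaving out 1. Same-numbered KO and WT libraries had r from -0.0908 to 0.24 over 17 pairs, with 2 over 0.1, so the replicate numbers do not pair libraries. Ackr1, with 136 to 518 counts per library, and Igsf9 are limited most by depth and spread.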
